A study of Mus musculus with 10 samples.

Results

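Small noncoding RNA genes encode RNAs that act without being translated. MicroRNAs (miRNAs) are cut from hairpin precursors and direct silencing complexes to messenger RNAs through a seed near their 5′ end, small nucleolar RNAs (snoRNAs) guide the modification of ribosomal RNA (rRNA), small nuclear RNAs (snRNAs) form the core of the spliceosome, and 7SK RNA, which GENCODE lists under misc_RNA, restrains transcription elongation. Mature sperm carry miRNAs and fragments of transfer RNA (tRNA), and most of their histones have been replaced by protamines. Mammalian genomes also hold many dispersed copies of snRNA, 7SK, 5S rRNA and snoRNA genes, most of them thought to be retroposed and not to be transcribed.

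Accessible chromatin was mapped with ATAC-seq, where open DNA is cut by the transposase Tn5, in cauda epididymal sperm of wild-type C57BL/6JRccHsd founder (F0) males. Males acquired at 3 weeks of age were fed from 4 weeks of age and for 6 months either a chow diet with 14% protein (F0 CD, 6 libraries) or a Western diet giving 43% of its kcal as carbohydrate and 40% as fat (F0 WD, 4 libraries). The sample titles give these group sizes, whereas a sentence in the protocol text gives 4 F0 CD and 6 F0 WD, and the titles were followed. The 10 lists of peaks were merged wherever intervals shared 1 bp, and 24550 consensus regions on chromosomes 1 to 19 had a peak in at least 2 libraries. A consensus region was placed at a small noncoding RNA gene when its nearest GENCODE M21 transcript start lay within 3 kb and belonged to a miRNA, snRNA, snoRNA, scaRNA, rRNA, misc_RNA or ribozyme gene. The rule found 325 regions at 306 genes, 1.32% of all consensus regions, while 1.02% of the bases of these chromosomes were nearest to, and within 3 kb of, such a start. At 2 regions the nearest start was tied with another. By comparison, 2336 regions (9.52%, against 9.11% of bases) lay at protein-coding starts and 777 (3.16%, against 2.06%) at long noncoding RNA starts.

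The lists held between 13366 and 29532 peaks, and between 5873 and 13901 consensus regions had a peak in a given library. F0 CD replicate 2 had the longest list and F0 WD replicate 4 the shortest. Read depth is not in the lists, but the number of reads at a summit could be solved from its fold enrichment and p-value for 99.994% of the 182970 summits tried, and the weakest summit of a list rested on 9 to 13 reads. Of the promoters of 10 sperm and spermatid marker genes, 0 had a consensus region within 3 kb, and the same held for 8 epididymal epithelium and 5 immune cell markers, while Zbtb16 was the 1 of 3 undifferentiated germ cell markers with a region. Over all protein-coding genes the share was 10.5%. Peaks seen in a single library lay within 3 kb of 3 of the 10 sperm markers (Prm1, Odf1 and Gapdhs), of 3 of the 8 epididymal markers and of 4 of the 5 immune markers. The epididymal and immune ones were all in F0 CD libraries. F0 CD also had 6 of the 10 libraries and longer lists (a mean of 18749 peaks, against 16882 in F0 WD), and the marker counts were not tested against these numbers. The undifferentiated germ cell marker Kit had a peak in 1 library of each diet. An open promoter is not expression, and these promoters do not tell the labelled cell type from the others. Each library came from 1 male, so p-values rest on the spread between males. The authors let a read align to several places and then removed low-quality alignments. How many reads with several placements remained is not in the lists, so at repeated genes a peak need not belong to the copy it was placed on.

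By gene type, snoRNA genes had 124 of the regions, miRNA genes 101, snRNA genes 52, misc_RNA genes 24, rRNA genes 23 and ribozyme genes 1, and none lay at the 46 scaRNA genes. snoRNA starts accounted for 0.505% of the regions against 0.246% of the bases, and miRNA starts for 0.411% against 0.327%. rRNA starts accounted for 0.0937% against 0.0617%. snRNA starts, in contrast, accounted for 0.212% of the regions against 0.279% of the bases. Of the 306 genes, 258 carried a Gm number in place of a name. Matched by blastn to named genes of the same type, 28 regions lay at copies of U6 (Rnu6), 10 at copies of U1 (Rnu1a1), 20 at copies of 7SK (Rn7sk) and 21 at copies of 5S rRNA. The largest single family was that of Snora17, an H/ACA box snoRNA, with 84 regions at 80 of its 587 copies.

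None of the 325 regions lay at a gene of the lists of sperm miRNAs and of polymerase III and housekeeping RNAs. Of 53 miRNA genes listed as present in sperm or the male germ line, 0 had a consensus region within 3 kb, and 13 had a peak in 1 library each, among them Mir449a, a miRNA of male germ cells, with a peak 79 bp from its start in 1 F0 WD library. Of 26 annotated genes of the list of polymerase III and housekeeping RNAs, such as Rn7sk and Rpph1 of RNase P, 1 had a region within 3 kb. That region, near the Y RNA gene Rny1, had a pseudogene as its nearest start. Over all snRNA genes the share with a region was 4.26%, and over all misc_RNA genes 5.69%. Genes of the pathways that make and use these RNAs are given beside the 10.5% of all protein-coding genes with a region within 3 kb. The lists are short, and their counts were not tested against these shares. A region lay within 3 kb of a start of 2 of 13 miRNA machinery genes (Ago4, in 2 F0 WD libraries, and Tnrc6c, both of the silencing complex), of 1 of 27 genes of snRNA and polymerase III transcription (Zfp143, an activator of snRNA genes, in 3 F0 CD libraries) and of 0 of 8 snoRNP protein genes, and none of these passed the detection test described further on.

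Few of the regions covered the start itself. A start site lay inside 18 of the 325 (5.54%, against 5.22% at protein-coding genes), 13 of them at miRNA genes, and 27 overlapped the small RNA gene anywhere along its length. Of the others, 119 lay upstream and 188 downstream, with a median distance of 942 bp. The regions had a median width of 362 bp, near the 356 bp of all consensus regions. Relative to other annotation, 173 were intergenic, 136 intronic and 16 touched an exon.

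The regions were shared by few libraries. Of the 325, 163 (50.2%) were found in only 2 libraries, against 45.9% of all consensus regions. In contrast, 69 had a peak in 5 or more libraries (21.2%, against 26.3%), and 9 in all 10 (2.77%, against 2.08%). The share in only 2 libraries was 67.7% for snoRNA regions and between 37.5% and 43.5% for miRNA, snRNA, rRNA and misc_RNA regions.

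**Figure D1:**
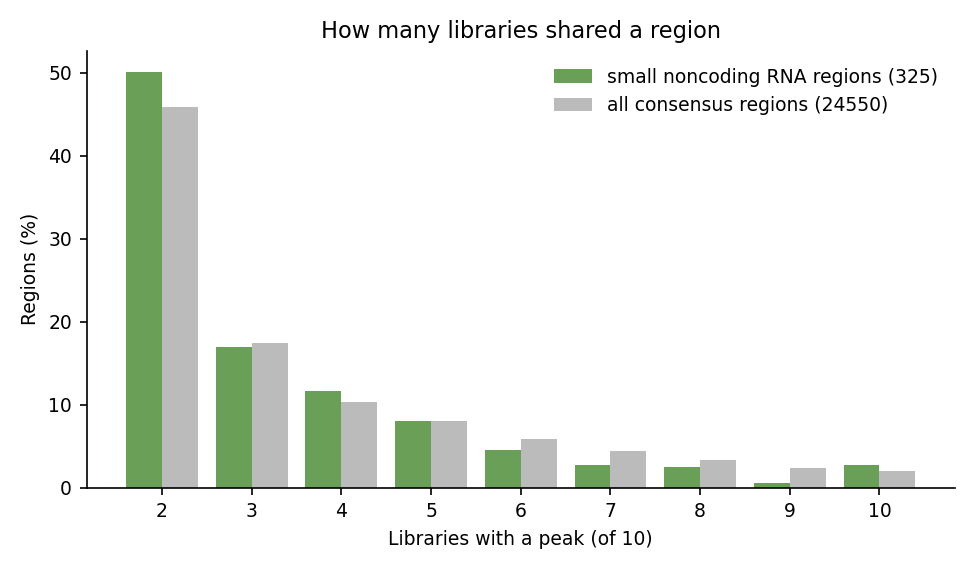
Percentage of regions (vertical axis) by the number of libraries with a peak (horizontal axis), for the 325 small noncoding RNA regions and all 24550 consensus regions. Both fall from 2 to 9 libraries, the small noncoding RNA regions from 50.2% to 0.615%. At 10 libraries the small noncoding RNA regions rise to 2.77% (9 regions), while all consensus regions fall further to 2.08%.

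Sequence around the strongest summit is shown for the 9 regions found in every library, because these rest on all 10 males. Each line gives 61 bases of the plus strand of mm10 (GRCm38), read from RefSeq. Capitals mark an unbroken CA or TG repeat of 10 units or more where there is one in the window and otherwise the 11 bases centred on the summit.
Gm23935, chr16:11144138-11144198: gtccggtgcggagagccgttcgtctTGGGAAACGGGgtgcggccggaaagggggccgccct
Gm27940, chr1:195241703-195241763: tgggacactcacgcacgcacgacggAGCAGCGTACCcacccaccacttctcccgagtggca
CT010467.1, chr17:39848282-39848342: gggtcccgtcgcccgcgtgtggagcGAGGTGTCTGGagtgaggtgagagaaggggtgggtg
Mir6236, chr9:110281280-110281340: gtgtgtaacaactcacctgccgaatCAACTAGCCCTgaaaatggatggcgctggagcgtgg
Gm27552, chr1:171069552-171069612: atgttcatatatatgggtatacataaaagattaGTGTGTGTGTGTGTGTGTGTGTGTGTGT
Snord37, chr10:81178145-81178205: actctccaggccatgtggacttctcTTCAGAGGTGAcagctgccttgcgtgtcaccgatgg
Gm25210, chr7:59768828-59768888: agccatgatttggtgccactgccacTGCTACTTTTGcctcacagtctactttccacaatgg
Gm25210, chr7:59769939-59769999: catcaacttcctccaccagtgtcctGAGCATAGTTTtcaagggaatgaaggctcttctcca
Gm24492, chr17:84285922-84285982: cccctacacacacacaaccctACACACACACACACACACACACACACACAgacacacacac

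The 9 summits differed in kind. In 1 of the 9, at Gm24492, at least 50% of the 61 bases lay in alternating CA or TG letters, compared with 271 of the 510 consensus regions found in every library (53.1%). Over all 325 regions this share was 34.2%, against 49.3% of all consensus regions. Among those in 5 or more libraries it was 62.3%, against 69.9%.

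Strength was compared as fold enrichment at the strongest summit and as the percentile rank of that summit within its own list, where values near 0 are the strongest and 100 the weakest, since fold and p-value also follow the depth of a library. The strongest region lay at Gm23935, which GENCODE lists as a miRNA gene but which had no named relative, at chr16:11143941-11144571 in an intron of Zc3h7a. The region held the start of the gene and was 59.7% G and C. Its fold enrichment in F0 CD ran from 12.2 through a median of 15.0 to 16.8, and in F0 WD it was 15.5, 12.5, 14.2 and 12.7. Its rank lay between 0.184 and 0.419 in all 10 libraries, and both diets covered the same span. A stretch of 188 bp of this region was 98.9% identical to the region at another gene listed as a miRNA, Gm24187 (chr13:9834219-9834522, 5 F0 CD and 1 F0 WD libraries). On chromosomes 1 to 19, 14 other stretches of at least 100 bp matched the Gm23935 region, 3 of them at 98% identity or more. Copies outside these chromosomes were not counted. Neither which copy the reads came from nor whether the sequence is that of a miRNA was tested.

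Mir6236 was the other gene listed as a miRNA with its start inside a region found in every library. The Mir6236 region, at chr9:110281174-110281614, had 35 to 68 reads at the summit in F0 CD and 45, 39, 50 and 59 reads in F0 WD. In F0 CD its fold enrichment was 8.24 to 13.3 (median 10.1), and the F0 WD values of 9.20, 9.85, 13.3 and 10.0 all lay within that range. All 10 libraries placed it in the strongest 1.05% of their list. It matched 1 other place on these chromosomes, at 85.7% identity. Copies outside these chromosomes were not counted, so this match does not show that the region is close to unique. Whether its reads came from a copy elsewhere was not tested.

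CT010467.1, an rRNA gene, overlapped a region at chr17:39847558-39848757, the widest of the 325 at 1200 bp, which also touched exons of AY036118 and Gm42418. This was 1 of the 2 regions with a tied nearest start, and ties were given to the small noncoding RNA gene. The region had 204 to 364 reads at its summit in the 7 libraries where the number could be solved. Its fold enrichments were only 2.13 to 2.54 in F0 CD and 2.56, 2.34, 2.32 and 2.18 in F0 WD. Its rank ran from 0.348 to 0.888 over all libraries. It matched 5 other stretches, the best at 96.7% identity, and reads from repeated copies of rRNA sequence cannot be told apart from reads of this one.

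Gm27940, a misc_RNA gene without a named relative, had a region at chr1:195241550-195241907, 543 bp upstream of its start, with fold enrichments of 11.1 to 19.5 in F0 CD (median 13.0) and 21.1, 11.3, 14.8 and 12.3 in F0 WD. F0 WD held both the highest value and a value close to the lowest.

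Gm24492, a U6 copy in an intron of Thada, had a region at chr17:84285744-84286271, 1476 bp downstream, at the CA run printed above. It was the weakest of the 9 by median rank, though not by fold enrichment, which was lower at CT010467.1, with values of 2.95 to 6.22 in F0 CD (median 4.79) and 4.41, 3.54, 6.04 and 5.31 in F0 WD. Its rank ran from 4.53 to 90.2, so the same region was among the strong peaks of one library and the weak peaks of another.

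Snord37, a C/D box snoRNA hosted by the translation elongation factor gene Eef2, had a region at chr10:81178001-81178327 that touched an exon of its host and lay 623 bp upstream of the snoRNA. The reads at its summit were 18 to 45 in F0 CD and 38, 28, 23 and 60 in F0 WD, with fold enrichments of 4.82 to 9.43 (median 6.11) and of 7.93, 7.44, 5.22 and 10.5. F0 WD held the highest value, and the other F0 WD values lay within the F0 CD range.

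**Figure D2:**
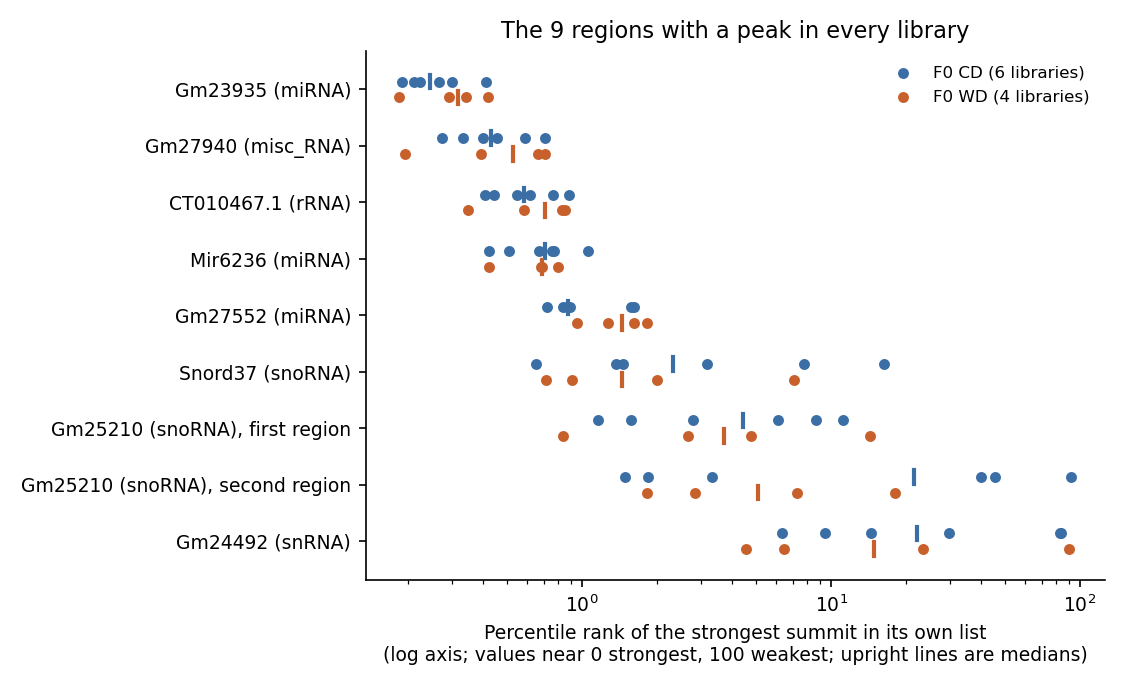
Percentile rank of the strongest summit within its own list (horizontal log axis, values near 0 strongest) for the 9 small noncoding RNA regions with a peak in every library. Points are libraries, upright lines are medians, and the 6 F0 CD and 4 F0 WD libraries overlap in all 9.

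A pair of the regions found in every library flanked Gm25210, a copy of Snord116. Snord116 is a C/D box snoRNA present in tandem copies within the long noncoding gene Snhg14, which is expressed from the paternal chromosome, and its loss is central to Prader-Willi syndrome in humans. The 71 Snord116 copies on chromosome 7 spread over 250 kb, all on the minus strand, with a median spacing of 2.53 kb. This span held 7 consensus regions, and 6 of them lay at 4 copies. The Gm25210 region at chr7:59768701-59769125, 106 bp downstream of the start, had 19 to 39 reads at the summit in F0 CD and 38, 17, 20 and 27 reads in F0 WD. The second, at chr7:59769673-59770097 and 442 bp upstream, had 10 to 38 reads in F0 CD and 26, 25, 16 and 22 reads in F0 WD. In the first, F0 WD replicate 2 lay just below the F0 CD range, and in the second all F0 WD values lay within it. A region 279 bp upstream of Gm26097, at chr7:59797276-59797636, was found in 4 libraries of each diet with 14 to 35 reads. Gm25944 had a region in 3 F0 CD and 2 F0 WD libraries, and Gm23446 and the start of Gm26097 each had one in 2 F0 CD libraries. The regions at Gm25944, Gm23446, Gm26097 and the upstream side of Gm25210 shared sequence at 95.0% to 98.3% identity, and the Gm25210 regions matched 69 and 70 other stretches of at least 100 bp on chromosomes 1 to 19. With copies so alike, how reads were divided among the copies cannot be told from the lists.

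**Figure D3:**
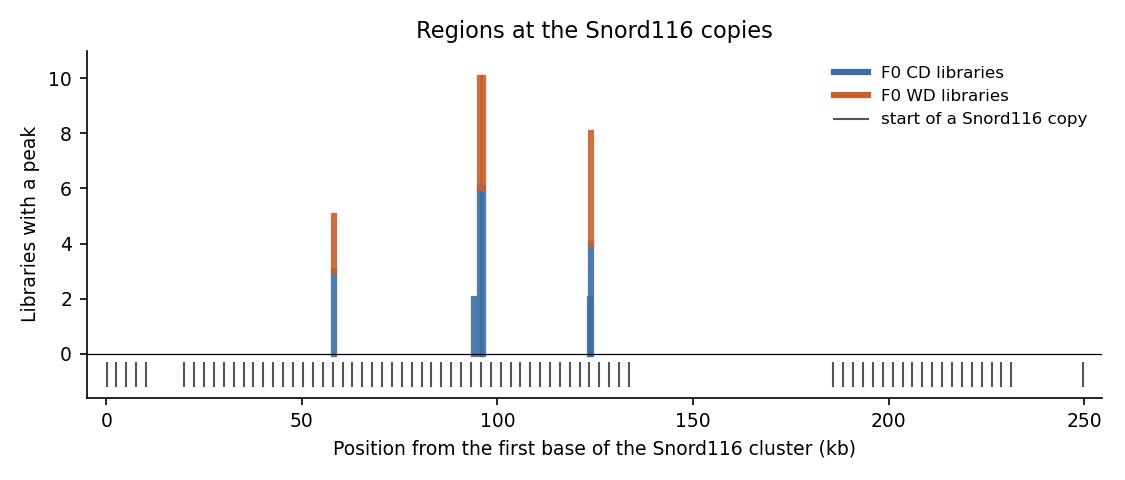
Libraries with a peak (vertical axis, F0 CD below F0 WD) at each of the 6 regions by position along the Snord116 cluster in kb, with ticks at the starts of the 71 copies. The regions lie at 4 of the copies, and those at Gm25210 have a peak in all 10 libraries.

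The Snora17-like genes showed a different arrangement. H/ACA snoRNAs guide pseudouridylation, and the 587 genes assigned to Snora17 by sequence had a median identity of 81.4% to it. Of these genes, 13.6% were the nearest start of a region within 3 kb, against 4.21% of the other 855 snoRNA genes. Of their 84 regions, 74 (88.1%) lay downstream of the start, 9 upstream and 1 at it, whereas the 40 regions at other snoRNA genes lay 20 downstream and 19 upstream. The summit lay a median of 783 bp downstream, with quartiles of 362 and 1103 bp, and 57 of the 84 summits (67.9%) fell between 201 and 1200 bp downstream. At all other small noncoding RNA genes 18.7% did so, and 19.5% lay at the same distance upstream.

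**Figure D4:**
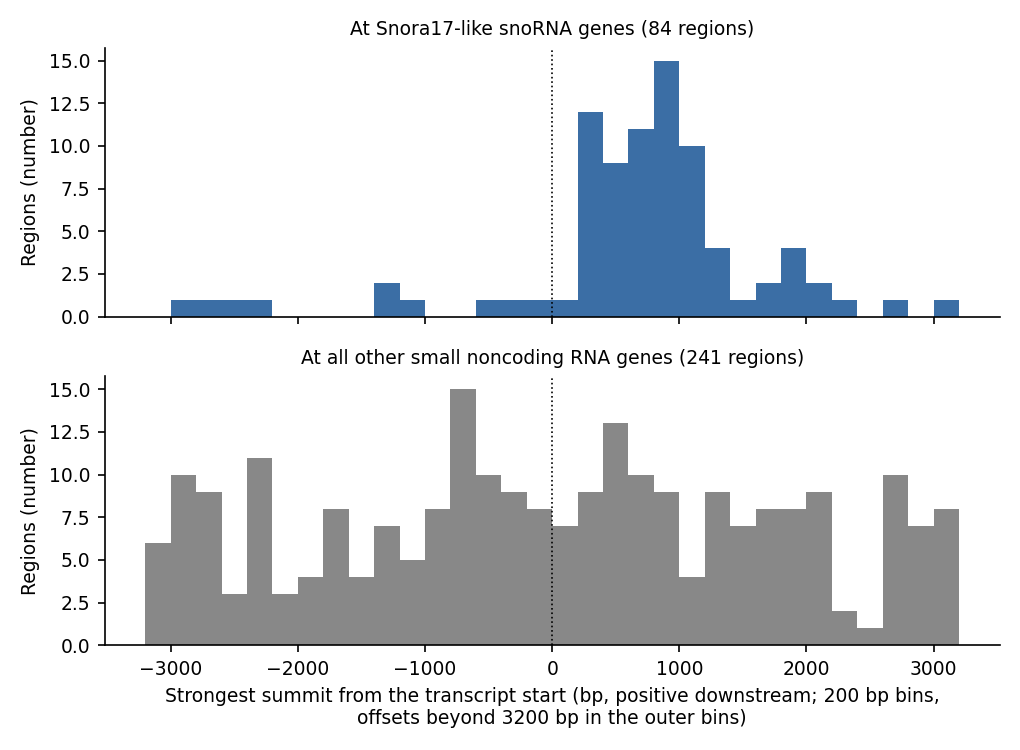
Position of the strongest summit from the transcript start in bp (horizontal axis, positive downstream) against the number of regions, for the 84 regions at Snora17-like genes and the 241 at all other small noncoding RNA genes. The former gather between 201 and 1200 bp downstream (57 of 84), and the latter spread over both sides.

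These regions resembled each other in sequence. Their median GC content was 53.4%, against 46.1% over all consensus regions. Soft-masked repeats covered a median of 22.0% of their bases, against 69.9%, and 10.7% had a summit rich in CA or TG, against 49.3%. Of the 84, 60 were found in only 2 libraries. All consensus regions found in only 2 libraries lay in between, with a median GC content of 47.8%, a median of 47% masked and 33.7% with a summit rich in CA or TG. Of the 74 regions in one group linked by pairwise alignments (at least 100 bp, median identity 72.8%), 64 lay at Snora17-like genes. A region joined a group by aligning to any 1 of its members, so the members need not all align with each other. The same method gave a larger group of 85 regions of mixed gene types (median identity 72.3%), 6 of them at Snora17-like genes. The most frequent 12-base word on the gene strand of the 74 downstream regions, AGAGCTGGCCCT, occurred in 16 of them (21.6%) and in the opposite direction in 0, while 0.407% of all consensus regions held it on either strand. It was chosen for being frequent, and 81 of the 100 consensus regions that held it lay outside the small noncoding RNA regions, so the word is not limited to these genes. It is shown in capitals, with its flanks and on the gene strand, in 3 of the 16 regions, those found in the most libraries with ties broken by rank, to let the shared letters be seen.
Gm24555, chr1:83923178-83923249, plus strand: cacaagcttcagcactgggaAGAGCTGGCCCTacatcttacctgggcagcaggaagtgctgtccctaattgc
Gm23527, chr6:116370964-116371035, minus strand: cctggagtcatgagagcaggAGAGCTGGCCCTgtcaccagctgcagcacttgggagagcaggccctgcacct
Gm23440, chr3:78981027-78981098, plus strand: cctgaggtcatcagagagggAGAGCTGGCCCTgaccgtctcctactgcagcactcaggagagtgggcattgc

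The Snora17-like regions were weak and shared by few animals. Of the 84, 60 (71.4%) had a peak in only 2 libraries and 4 in 5 or more, and their median rank was 60.7, against 43.3 for all consensus regions. F0 CD had 9 to 37 of them per library (21.5 ± 12.2, SD, n = 6). F0 WD had 17, 18, 26 and 21 (20.5 ± 4.04, SD, n = 4), all inside the F0 CD range. F0 CD replicate 3 held 36 of them among 7950 consensus regions, a share of 0.453%, and F0 CD replicate 1 held 9 (0.120%). The same library, F0 CD replicate 3, had a median GC content over its regions of 46.2%, where the 10 libraries ran from 44.9% to 46.6%, and whether GC plays a part in these counts was not tested. The region seen in the most libraries lay 1370 bp downstream of Gm26416, at chr15:31192462-31192968, in 5 F0 CD and 2 F0 WD libraries.

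Regions at miRNA genes lay mostly at unnamed genes, 62 of the 94 carrying a Gm number, and RefSeq gave a mature sequence for 28. The 4 below were chosen for display because their genes start inside a region or lie in a well-known family, with the seed (bases 2 to 8) in capitals.
mmu-miR-6236: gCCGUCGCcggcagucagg
mmu-miR-138-5p: aGCUGGUGuugugaaucaggccg
mmu-miR-466j: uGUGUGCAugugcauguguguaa
mmu-let-7k: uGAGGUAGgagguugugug
The 28 genes shared no seed with each other. Mir138-1 (chr9:122682222-122682899), whose product is abundant in brain, had its start inside a region found in 4 libraries, 1 of them F0 WD. Mir466j, Mir466k and Mir466f-4, of a family whose hairpins are themselves rich in alternating purines and pyrimidines, had starts inside regions found in 4, 4 and 6 libraries. Mir7k, which carries the let-7 seed, had a region 1562 bp upstream in 2 F0 CD libraries.

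A second place where regions clustered was a tRNA gene cluster on chromosome 1, where the miRNA genes Mir6546, Gm27552 and Gm27844 are annotated. tRNA genes were not part of the rule. Of 386 RefSeq tRNA genes on these chromosomes, 1 overlapped a consensus region, the glycine tRNA gene n-TGgcc13, in a region nearest to Gm27552 (chr1:171074366-171074609, 3 F0 CD and 1 F0 WD libraries). Of all consensus regions, 7 lay within 1 kb of a tRNA gene, and 4 of these were in this cluster. The region of the cluster found in every library, at chr1:171069418-171069848 and 2439 bp downstream of Gm27552, had its summit at the TG run printed above and lay 1944 bp from the nearest tRNA gene, a glutamate tRNA. Its fold enrichment was 6.72 to 8.55 in F0 CD (median 7.89) and 7.59, 7.61, 7.71 and 6.39 in F0 WD, of which replicate 4 lay below the F0 CD range.

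Promoter elements of small RNA genes were rare at these summits. Within 200 bases centred on the summit and on either strand, the octamer ATGCAAAT of snRNA enhancers was found in 1 of the 325 regions (0.308%, against 0.635% of all consensus regions), GGTTCGA, the core of the B box inside tRNA genes, in 1 (against 0.0774%), the cAMP response element TGACGTCA in 0 (against 0.0407%) and the GC box GGGCGG in 10 (3.08%, against 1.38%). CA or TG repeats of that length were present in 35.4% of the 325 regions, against 47.6% of all, and in 53.8% of the snRNA and 19.4% of the snoRNA regions. These words were not tested for binding.

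Whether the Western diet altered accessibility at these genes was asked first by the number of libraries of each diet with a peak. Of the 325 regions, 233 had a peak in both diets, 71 in F0 CD only and 21 in F0 WD only (71.7%, 21.8% and 6.46%, against 72.8%, 21.9% and 5.29% of all consensus regions), and F0 CD had more libraries. By Fisher's exact test (two-sided, unadjusted p under 0.05, over all 24550 regions) 0 of the 325 were detected more often in F0 WD, where 0.558% of all consensus regions were, and 1 more often in F0 CD, where 0.473% were. No consensus region passed after Benjamini-Hochberg adjustment. A region in 2 libraries cannot pass this test, since its smallest p is 0.133, so 163 of the 325 could not be called. Nor could the 8 regions in 8 libraries, the 2 in 9 and the 9 in all 10, where too few libraries lacked a peak.

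The region called lay 567 bp downstream of Gm23799, a 5S rRNA copy, at chr12:56055691-56056188. It was found in 6 of 6 F0 CD but 1 of 4 F0 WD libraries (Fisher's exact p = 0.0333, adjusted p = 1). The summit had 15 to 24 reads in F0 CD, with fold enrichments of 3.45 to 6.36, and 12 reads with a fold enrichment of 3.92 in F0 WD replicate 3. Repeats covered 86.7% of the region, which held a CA or TG run. Without F0 WD replicate 1, 2 or 4 it no longer passed. The pattern with the next smallest p, 4 F0 CD libraries against 0 F0 WD libraries, was that of a region 2717 bp upstream of the snRNA gene Gm26110 and of one 388 bp downstream of Mir1981 (Fisher's exact p = 0.0762 for each). It was followed by 21 regions in 2 F0 WD libraries only (Fisher's exact p = 0.133 for each). The regions at Gm24187 and at the misc_RNA gene Gm27899 were found in 5 F0 CD libraries against 1 F0 WD library (Fisher's exact p = 0.190 for each). In the other direction, 3 F0 WD libraries against 1 F0 CD library was the pattern of a region 57 bp upstream of the snRNA gene Gm24854 and of one 870 bp downstream of the 5S rRNA copy n-R5s46 (Fisher's exact p = 0.190 for each).

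Strength was compared next, at the 9 regions with a peak in every library. Of the 9, 0 passed the test of a difference in rank between the diets (exact two-sided permutation test over 210 splits, unadjusted p under 0.05), where 2.35% of the 510 such consensus regions did. The smallest p was that of the tRNA cluster region at Gm27552, where the mean rank was 1.08 ± 0.398 in the 6 F0 CD libraries and 1.42 ± 0.385 in the 4 F0 WD libraries (± SD, exact permutation p = 0.219, adjusted p = 0.993). Gm23935 had 0.267 ± 0.0817 and 0.309 ± 0.0984 (exact permutation p = 0.476). The largest difference in mean rank was at the upstream Gm25210 region, 30.7 ± 36.1 in F0 CD and 7.48 ± 7.39 in F0 WD, within the spread of F0 CD (exact permutation p = 0.286). The test cannot give a p under 0.00952.

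Each library had a peak in 78 to 181 of the 325 regions. F0 CD libraries had 87, a median of 106 and 181 as lowest, middle and highest values (114.8 ± 35.2, SD, n = 6), and F0 WD libraries 106, 106, 119 and 78 (102.3 ± 17.3, SD, n = 4). The difference, -12.6 regions from F0 CD to F0 WD, was smaller than the SD of either group and rested on F0 CD replicate 2: without it F0 WD had 1.8 more. As a share of the library's own consensus regions the diets had 1.24% ± 0.136 and 1.24% ± 0.107. All gene types overlapped between the diets, with 33 to 57 miRNA regions in F0 CD and 43, 37, 40 and 26 in F0 WD, and 14 to 28 snRNA regions in F0 CD and 16, 20, 19 and 8 in F0 WD.

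**Figure D5:**
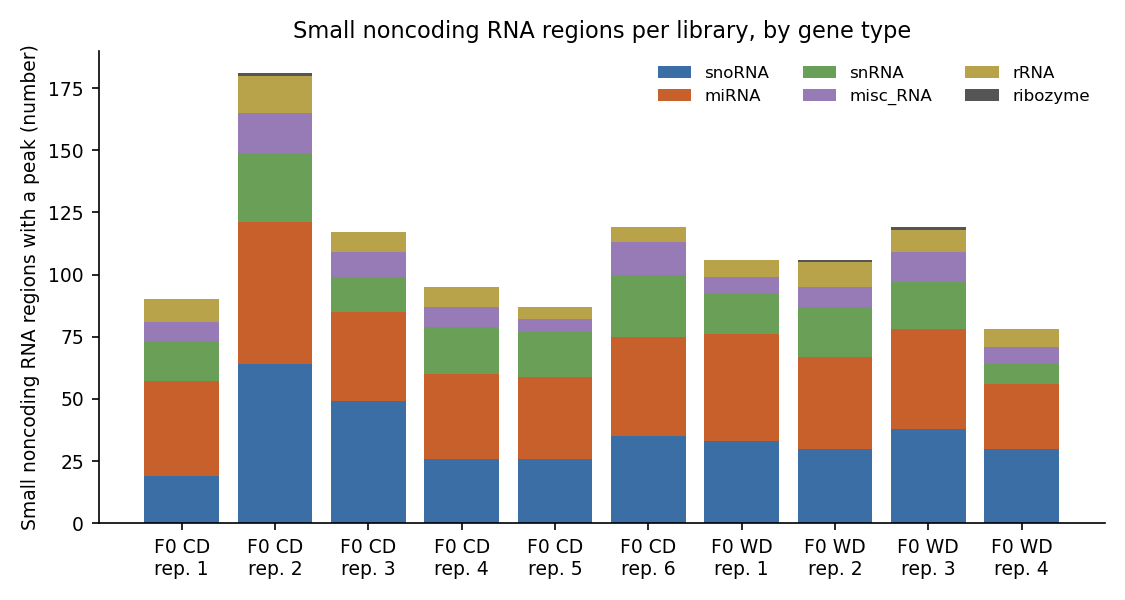
Number of small noncoding RNA regions with a peak in each library (vertical axis), stacked by gene type, for 6 F0 CD and 4 F0 WD libraries. F0 CD replicate 2 stands highest with 181 and F0 WD replicate 4 lowest with 78.

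Outside the regions found in every library, those seen most often were mixed in kind. Gm23741, a U1 copy in an intron of 9430041J12Rik, had a region 2680 bp downstream in 6 F0 CD and 3 F0 WD libraries, and Gm23959, a 7SK copy, had one 1819 bp downstream in 5 and 4. Gm23158 (miRNA, 8 libraries), Gm23133 (snRNA, 8), Gm23680 (snRNA, 7), Gm27595 (rRNA, 7), Gm23533 and Gm23211 (both 7SK copies, 7 and 6) and n-R5s156 (rRNA, 5) completed the most shared of each type. The only ribozyme region lay 774 bp downstream of Gm24885, a copy of the RNase P RNA gene Rprl3, in 1 F0 CD and 2 F0 WD libraries. At the edge of the 3 kb window, the region at Gm24376 (2999 bp, 3 F0 CD and 3 F0 WD libraries) and one at Dlx6os1, which GENCODE lists there as misc_RNA (2997 bp, 2 F0 CD libraries), were just inside, and those at Gm26105 (3014 bp, 3 F0 CD libraries) and Gm23040 (3018 bp, 5 F0 CD and 4 F0 WD libraries) just outside.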

How the data were processed

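Peaks were called per library, with no pooling. Per the submitters' processing notes the tools were Trim Galore 0.6.10, Bowtie2 2.4.5, Picard 2.24.0, SAMtools and MACS2 2.2.7.1, on mm10 (GRCm38). The authors allowed several alignments per read and removed those of low quality. In the deposited lists each summit carries a fold enrichment over local background (a ratio), −log10 p and −log10 q values, a score made from the q-value and the summit offset, none scaled between libraries. Lists were merged and annotated with GENCODE M21 in Python 3.11.15 (numpy 2.4.6, pandas 2.3.3, pysam 0.24.0, biopython 1.88), tests were run in scipy 1.17.1 and figures drawn in matplotlib 3.10.9. Families came from blastn 2.17.0 (e-value 0.001). Reads at summits were solved from fold and p up to a −log10 p of 60. Scripts were tested on simulated data. Members and lists were chosen with earlier results of these data known. Named were regions passing the detection test, those in all 10 libraries, the 4 most shared per gene type, those at list genes and those at the window's edges; members of the Snord116, Snora17 and tRNA groups, start-containing miRNA genes and the patterns next to the call were named after their values were seen. Alternatives changed the q limit, libraries required, merging gap, list length, distance measure, window, test and libraries left out. The authors' read-count comparison was not repeated, since read counts were not used here.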

Additional observations from a re-analysis of the deposited data

Results flagged for a closer look

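Dixon's test was applied to 38 groups of 4 or 6 libraries, of which chance marks about 1 in 20, and 5 held a library apart from the others. In F0 CD, replicate 2 had a peak in 181 of the small noncoding RNA regions, where the other F0 CD libraries had 87 to 119. The same library had 57 miRNA regions, where the others had 33 to 40, and 1 ribozyme region, where the others had 0. Only 1 ribozyme region exists, so this last flag follows whenever a single library of a group has it. The rate of 1 in 20 does not apply to it. In F0 WD, replicate 4 had a peak in 5873 consensus regions, where the others had 8895 to 9454. F0 WD replicate 1 had a median percentile rank of 28.9 over its small noncoding RNA regions, where the other F0 WD libraries had 39.2 to 41.2.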

How the results depend on the processing

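Of 104 values under 20 alternative settings, 87 were counted as kept. A count of regions was kept if it was equal or stayed within 1.5 times. The difference per library was kept if its sign was the same and it lay within 35.2, the larger SD, of -12.6. That limit is wider than the difference itself, so a much smaller negative value such as -2.17 was also counted as kept. The number of regions was 162 when at least 3 libraries were required, 168 within 1 kb, and 257 to 306 with 1 library left out. The regions detected more often in F0 CD numbered 2 with peaks of q under 0.01, 3 with the mid-p version of the test and 0 to 4 with 1 library left out, and those detected more often in F0 WD 0 to 1. Calls gained in this way were at Gm24187, Gm24854, Gm26110, Gm27899, Mir1981 and n-R5s46, each without either of 2 libraries. The difference in regions per library ran from -17.65 to 1.8 with 1 library left out, positive without F0 CD replicate 2. It was -2.17 with the same number of peaks from every list, against -12.6 as reported, and as a share of the library's own regions it was 0.00846 percentage points. The cause of these changes was not tested. Over all regions, calls toward F0 CD rose from 116 to 345 with the mid-p version and were 74 with lists of equal length, and without F0 CD replicate 2 calls toward F0 WD were 245, from 137.

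With the replicate block (4 pairs, smallest p 0.125) 0 regions could be called in either direction, and the difference per library was -18.5. The numbers did not pair the samples: correlations of same-numbered libraries ran from -0.0115 to 0.0337 and those of others from -0.0408 to 0.0494, and 1 of 4 F0 CD libraries was closest to its own number.

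Depth limits these results, since many summits rest on few reads (the median over the regions was 16), and list lengths differ.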
